A study of Mus musculus with 10 samples.

Results

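The genes described here are those of the integrated stress response, the pathway that slows protein synthesis and adjusts amino acid supply in stressed cells, together with the cytosolic aminoacyl-tRNA synthetases linked to it. They were chosen by gene symbol, as 45 symbols taken from knowledge of the pathway. Of these, 43 had a probe on the array, 42 could be tested, and the whole array gave 19567 testable genes. Sesn2 and Phgdh were not analysed here, and Cebpb had too few values for a test (1 db/+ array and 0 db/db arrays). Pancreatic islets came from C57BLKS/J mice at 9 weeks of age. Of the samples, 5 were from mice homozygous for the leptin receptor mutation db (db/db) and 5 from lean heterozygous controls (db/+). A mouse homozygous for db lacks leptin signalling, is obese and insulin resistant, and per the labels is severely hyperglycaemic at this age, with insulin in decline. Each islet sample was labelled with Cy5 and hybridised with a Cy3-labelled reference, described as RNA of db/+ islets from 9-week-old mice. Every value below is therefore a log2 ratio of Cy5 over Cy3, and a ratio of 0 means the level of the reference. Whole islets were used, and in such bulk samples fewer cells of a type and less RNA per cell cannot be told apart.

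In the integrated stress response, kinases that sense unfolded proteins, amino acid shortage, haem shortage or viral RNA phosphorylate the initiation factor eIF2. Translation then falls in general, while that of the transcription factor ATF4 increases, and ATF4 with its dimer partners switches on genes for amino acid synthesis and uptake, tRNA charging, redox defence and, through CHOP (Ddit3), cell death. ATF4 protein is set largely by translation, so its mRNA alone is no measure of its activity. Beta cells make much secreted protein, and mice without the kinase PERK (Eif2ak3) lose beta cells and become diabetic.

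Many genes of this pathway carry the C/EBP-ATF response element, a composite site for a dimer of both factor families. Its core was searched as TGATGNAA on both strands of RefSeq promoter windows (assembly GRCm38.p6), which run from 250 bases before to 50 bases after each listed start. It was present for 12 of the 34 members with a listed promoter (35.3%), compared with 1218 of 27018 genes in the table (4.51%). The members were picked partly because they are known ATF4 targets, so this share is a description of the choice. The core was found for 5 of 8 synthetases, 2 of 7 transcription factors, 2 of 4 secreted and surface proteins and 1 of 7 amino acid enzymes. The endoplasmic reticulum stress element, searched as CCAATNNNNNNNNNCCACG on both strands, was in 0 of the 34 member windows and in 0.137% of all genes. No listed promoter was found for Eif4ebp1, Aldh1l2, Cth, Slc7a5, Slc7a3, Wars, Nars, Lars and Cars.

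The promoters of the 4 members that both held the core and differed between the groups are shown first, because the element and the measured change can be read together there. Each runs 5′ to 3′ on the gene's strand from 250 bases before to 20 bases after the RefSeq start, and capitals mark the core, which reads TTGCATCA or TTTCATCA where it lies on the opposite strand.
Aars (chr8:111033592-111033861, plus strand): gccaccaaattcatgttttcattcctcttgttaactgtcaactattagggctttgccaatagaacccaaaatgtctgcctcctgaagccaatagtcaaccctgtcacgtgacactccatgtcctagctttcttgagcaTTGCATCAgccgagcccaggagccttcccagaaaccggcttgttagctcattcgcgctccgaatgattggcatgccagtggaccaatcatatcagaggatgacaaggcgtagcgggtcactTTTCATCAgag
Yars (chr4:129189653-129189922, plus strand): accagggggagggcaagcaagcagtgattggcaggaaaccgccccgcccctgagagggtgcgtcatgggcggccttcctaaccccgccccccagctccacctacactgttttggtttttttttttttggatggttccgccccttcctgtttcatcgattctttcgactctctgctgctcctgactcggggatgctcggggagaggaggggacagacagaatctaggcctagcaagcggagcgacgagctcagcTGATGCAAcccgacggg
Slc7a11 (chr3:50443594-50443863, minus strand): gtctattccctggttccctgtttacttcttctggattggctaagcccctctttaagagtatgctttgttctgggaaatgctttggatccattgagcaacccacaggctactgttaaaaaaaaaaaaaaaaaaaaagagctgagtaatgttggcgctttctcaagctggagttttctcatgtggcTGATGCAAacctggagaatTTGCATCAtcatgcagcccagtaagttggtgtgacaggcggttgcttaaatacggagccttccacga
Fgf21 (chr7:45615471-45615740, minus strand): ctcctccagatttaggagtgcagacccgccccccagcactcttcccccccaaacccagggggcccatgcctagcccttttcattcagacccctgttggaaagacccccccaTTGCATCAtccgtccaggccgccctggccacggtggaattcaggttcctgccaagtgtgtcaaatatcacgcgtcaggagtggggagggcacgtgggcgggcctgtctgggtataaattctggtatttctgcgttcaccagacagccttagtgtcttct

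Aars and Yars fell in db/db islets, whereas Slc7a11 and Fgf21 rose. The same core stood in promoters of genes called in opposite directions, and Slc7a11 and Aars each held 2 copies. Each of these calls ended when the ratios were quantile normalized between arrays (limma adjusted p = 0.0728 to 0.483), with the direction kept. In 8 further members the core was present and the gene did not pass the test. Their sites are shown for comparison, each on the strand on which the core reads forward, with 10 bases on either side and the core in capitals.
Nupr1 (chr7:126625563-126625590, plus strand): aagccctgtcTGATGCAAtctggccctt
Trib3 (chr2:152344029-152344056, plus strand): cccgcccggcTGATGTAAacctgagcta
Chac1 (chr2:119351039-119351066, minus strand): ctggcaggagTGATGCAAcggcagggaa
Asns (chr6:7693215-7693242, minus strand): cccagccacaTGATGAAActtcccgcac
Gars (chr6:55037961-55037988, minus strand): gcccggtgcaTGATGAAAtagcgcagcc
Iars (chr13:49682127-49682154, minus strand): cgtctggaggTGATGCAAtactgacagt
Tars (chr15:11399656-11399683, plus strand): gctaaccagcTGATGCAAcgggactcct
Vldlr (chr19:27216810-27216837, minus strand): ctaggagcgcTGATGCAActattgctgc

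Over the 12 members there were 14 sites, and the free base of the core was C in 10 of them, A in 3 and T in 1. Among the 12 members with the core, 2 were higher, 2 were lower and the median log2 difference was -0.01. Among the 21 tested members whose window lacked it, 7 were higher, 4 were lower and the median was -0.06. Over all genes tested, 17.1% were higher and 18.1% lower. Members with and without the core were not tested against each other.

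Islets of db/db mice did not show a shift of the pathway in 1 direction. With limma over all genes and an adjusted p under 0.05, 10 of 42 members were higher in db/db (23.8%) and 6 were lower (14.3%). Over all 19567 genes, 35.2% passed in either direction, 17.1% higher and 18.1% lower, and 38.1% of the members passed. The members' share is therefore near that of the whole array. The median log2 difference of the members was -0.01, compared with -0.02 for all genes. Of the 36 members with a value on all 10 arrays, 6 had every db/db array above every db/+ array and 2 had every db/db array below, while over all such genes 26.1% were separated in this way (12.9% above, 13.2% below). The secreted factors, certain transporters and Ddit4 made up the larger rises, and the kinases, Atf4 and most synthetases lay at or under 0. With the ratios quantile normalized between arrays, the calls of Atf5, Ddit3, Ddit4, Shmt1, Slc7a11, Slc7a1, Aars, Mars, Yars and Fgf21 ended (adjusted p = 0.0693 to 0.518), all in the same direction as before.

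**Figure D1:**
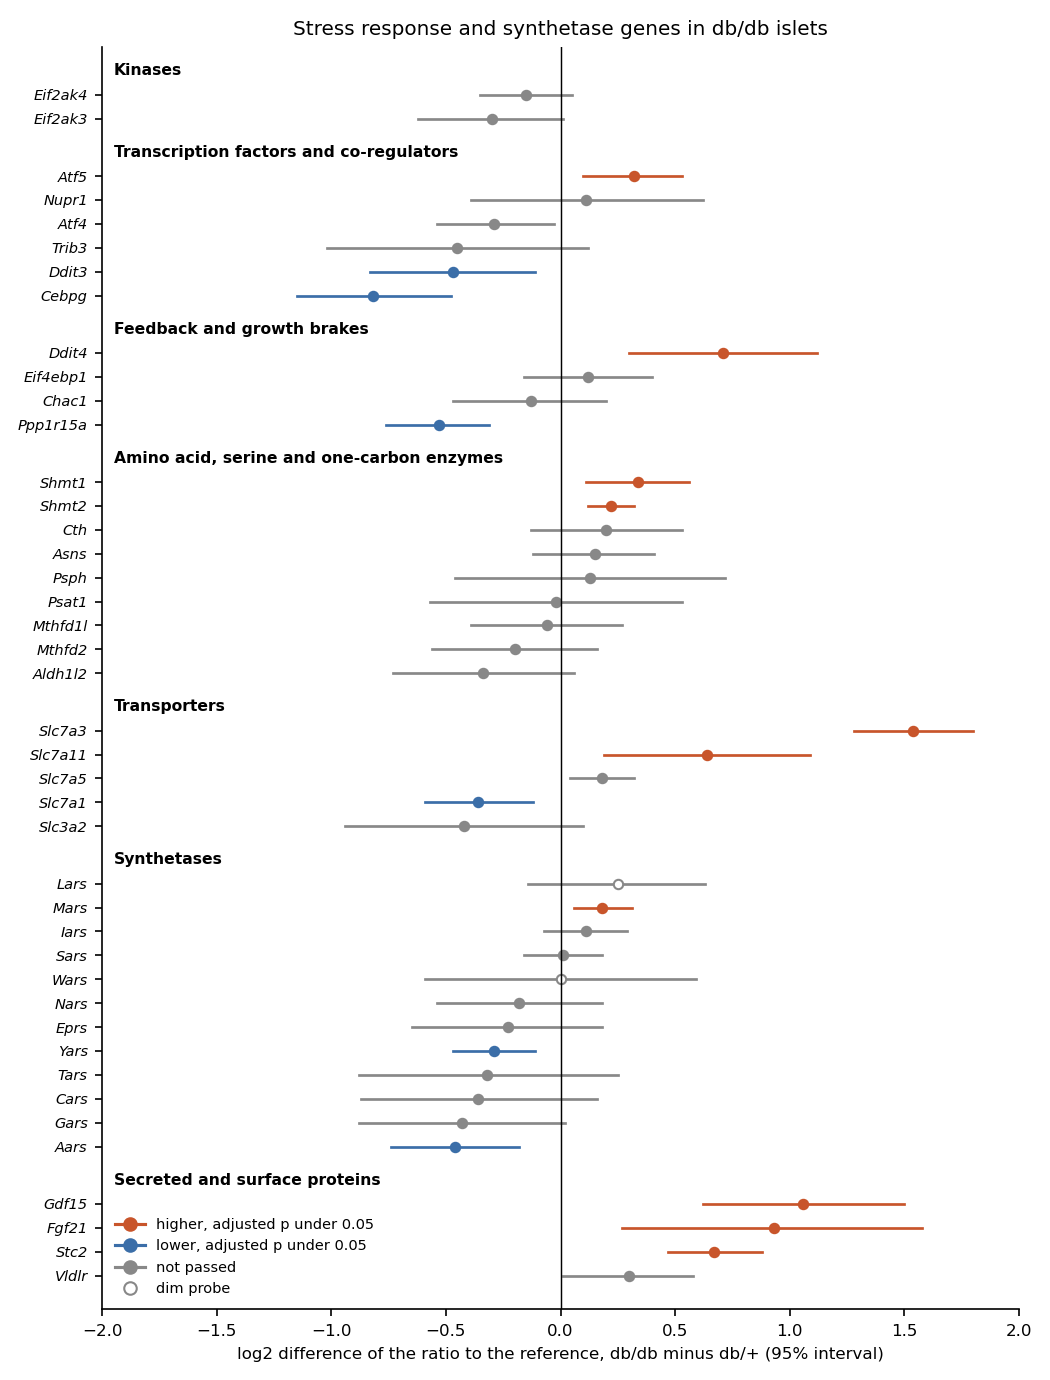
Log2 difference of the ratio to the reference, db/db minus db/+, for the 42 tested members, grouped by role; points are limma estimates and bars their 95% intervals. Slc7a3 lies farthest to the right at 1.54 and Cebpg farthest to the left at -0.82, and 21 of the 42 estimates are below 0.

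Neither eIF2 kinase among the members passed the test. For Eif2ak3, the kinase PERK of the endoplasmic reticulum, the log2 ratios were -0.21, -0.22, 0.02, 0.48 and 0.27 in db/+ and -0.20, -0.44, -0.12, -0.12 and -0.31 in db/db islets, with overlapping groups and a difference of -0.30 (95% interval -0.62 to 0.01, limma adjusted p = 0.13). Eif2ak4, which encodes the amino acid sensor GCN2, gave -0.10, -0.24, 0.12, 0.13 and 0.08 in db/+ and -0.06, -0.28, -0.30, -0.10 and -0.02 in db/db. Its groups also overlapped, and the difference was -0.15 (95% interval -0.35 to 0.05, limma adjusted p = 0.233). The intervals leave room for a decrease of either kinase mRNA and for almost no difference.

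Among the 6 tested transcription factors and co-regulators, 1 rose and 2 fell, with a median log2 difference of -0.37. Atf4 had values on only 3 db/+ arrays, at -0.09, 0.13 and 0.14, and read -0.44, -0.34, -0.03, -0.09 and -0.22 in db/db. All but 1 of the db/db values lay at or under the lowest db/+ value, and the difference of -0.29 did not pass (95% interval -0.54 to -0.03, limma adjusted p = 0.0803). Atf4 did pass with loess normalization (adjusted p = 0.0376) and without db/db replicate 3 (adjusted p = 0.0489). Its second probe had 1 value and was not tested.

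The ATF4 dimer partner Cebpg fell. Its log2 ratios were 0.05, -0.05, 0.27, 0.37 and 0.24 in db/+ and -0.90, -0.85, -0.31, -0.30 and -0.86 in db/db, so the groups did not overlap (1.76-fold lower, log2 difference -0.82 ± 0.15 SE, limma adjusted p = 0.00216). A second Cebpg probe gave a smaller difference that did not pass (-0.32, limma adjusted p = 0.0977), so the size of the fall differs between the probes. Ddit3, which encodes the pro-death factor CHOP, read -0.36, -0.08, -0.06 and 0.43 on the 4 db/+ arrays with a value and -0.60, -0.65, -0.56, -0.35 and -0.26 in db/db. The groups overlapped, and Ddit3 was 1.38-fold lower at the edge of the threshold (log2 difference -0.47 ± 0.16 SE, limma adjusted p = 0.0478). This call ended when any 1 array other than db/+ replicate 1 or db/db replicate 5 was left out. The limma adjusted p was then 0.051, 0.0825, 0.0884 and 0.08 without db/+ replicates 2, 3, 4 and 5, and 0.097, 0.0983, 0.0926 and 0.0616 without db/db replicates 1, 2, 3 and 4.

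Atf5, a related bZIP factor, rose, with 0.33, 0.14, -0.11, 0.08 and -0.20 in db/+ and 0.33, 0.34, 0.50, 0.31 and 0.36 in db/db. The db/db values were close together, and db/+ replicate 1 reached into their range (1.25-fold higher, log2 difference 0.32 ± 0.10 SE, limma adjusted p = 0.0269). Atf5 did not pass without db/+ replicate 3 or 5 (adjusted p = 0.0655 and 0.052) or without db/db replicate 3 or 5 (0.0611 and 0.0525). In the Cy5 signal without the reference the Atf5 difference shrank to 0.04. Trib3, a pseudokinase that restrains ATF4 and CHOP, read 0.33, -0.27, 0.32, 0.25 and 0.24 in db/+ and -0.89, -0.60, 0.34, 0.29 and -0.52 in db/db. Among the db/db arrays, 2 had Trib3 at the level of most controls and 3 were well below it. The difference of -0.45 did not pass (95% interval -1.02 to 0.12, limma adjusted p = 0.213). Nupr1, a small stress-induced nuclear protein, did not pass either (0.11, adjusted p = 0.734).

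The genes grouped as feedback and growth brakes were split. Ppp1r15a encodes GADD34, which brings a phosphatase to eIF2 and so ends the response. Its log2 ratios were 0.04, 0.20, 0.04, -0.26 and 0.08 in db/+ and -0.70, -0.42, -0.42, -0.35 and -0.67 in db/db, all db/db values below all db/+ values (1.45-fold lower, log2 difference -0.53 ± 0.10 SE, limma adjusted p = 0.00255). Ddit4, an inhibitor of the growth kinase complex mTORC1, moved the other way, from -0.47, -0.06, -0.27, 0.24 and 0.10 in db/+ to 1.00, 0.75, 0.09, 0.53 and 0.69 in db/db. Ddit4 was 1.63-fold higher, with db/db replicate 3 inside the db/+ range (log2 difference 0.71 ± 0.18 SE, limma adjusted p = 0.014). Chac1, which breaks down glutathione, had 3 db/+ values of 0.21, -0.37 and 0.26, and -0.19, 0.00, -0.10, -0.05 and -0.17 in db/db. It did not pass (-0.13, 95% interval -0.47 to 0.20, limma adjusted p = 0.505), and passed as lower only when db/+ replicate 4 was left out (-0.34, adjusted p = 0.00867). Eif4ebp1, a repressor of cap-dependent translation, gave 0.12 (adjusted p = 0.494).

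The enzymes of amino acid, serine and one-carbon metabolism had a median difference of 0.13, and 2 of 9 tested rose while 0 fell. Both were serine hydroxymethyltransferases, which pass a carbon unit from serine to folate. The mitochondrial enzyme gene Shmt2 read -0.07, -0.07, -0.05, -0.05 and -0.04 in db/+ and 0.04, 0.23, 0.20, 0.12 and 0.24 in db/db, without overlap (1.16-fold higher, log2 difference 0.22 ± 0.04 SE, limma adjusted p = 0.00294). In the Cy5 signal without the reference Shmt2 did not pass (0.09, adjusted p = 0.609). The cytosolic Shmt1 read -0.12, -0.10, 0.07, 0.00 and 0.28 in db/+ and 0.38, 0.61, 0.13, 0.35 and 0.35 in db/db, with 1 db/db array inside the db/+ range (1.26-fold higher, log2 difference 0.34 ± 0.10 SE, limma adjusted p = 0.025). The Shmt1 call ended without db/+ replicate 1, 2 or 4 (adjusted p = 0.0567, 0.0585 and 0.0534) or db/db replicate 1 (0.0504), and when Cy5 was used alone without its reference (0.26, adjusted p = 0.3).

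Asns, which makes asparagine and is a standard readout of ATF4, read -0.15, -0.12, 0.07, 0.00 and 0.05 in db/+ and -0.27, 0.15, 0.41, 0.27 and 0.01 in db/db. The groups overlapped, with the lowest value of all on a db/db array, and the difference was 0.15 (95% interval -0.12 to 0.41, limma adjusted p = 0.375). The Cy3 reference of Asns differed by -0.14 between the arrays of the groups (unadjusted p = 0.0446, adjusted p = 0.86), and without the reference the difference was -0.01. Psat1 and Psph of the serine pathway, Mthfd2, Mthfd1l and Aldh1l2 of mitochondrial folate metabolism and Cth of cysteine synthesis lay between -0.34 and 0.20 and did not pass. For Psat1 the interval was -0.57 to 0.53.

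Of 5 amino acid transporters, 2 rose and 1 fell, with a median difference of 0.18. Slc7a3, a carrier of cationic amino acids such as arginine, showed the largest rise of all members. Its log2 ratios were 0.04, -0.08, -0.18, 0.30 and 0.29 in db/+ and 1.88, 1.63, 1.53, 1.42 and 1.61 in db/db, a gap wider than the spread within either group (2.91-fold higher, log2 difference 1.54 ± 0.12 SE, limma adjusted p = 1.29e-05). Slc7a1, the carrier of the same family found in most tissues, read -0.33, -0.31, 0.06, 0.18 and 0.04 in db/+ and -0.48, -0.45, -0.48, -0.41 and -0.31 in db/db. It was 1.28-fold lower with groups that met at their edge (log2 difference -0.36 ± 0.10 SE, limma adjusted p = 0.0239). The call did not hold without db/+ replicate 3 or 5 or db/db replicate 1 or 3 (adjusted p = 0.0594, 0.0589, 0.0526 and 0.0515). A second Slc7a1 probe gave 0.11 (limma adjusted p = 0.503), so the direction for Slc7a1 differed between probes, and the mean of the probes did not pass (-0.13, adjusted p = 0.139).

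Slc7a11, which imports cystine in exchange for glutamate, read -0.32, -0.64, 0.30, 0.22 and 0.28 in db/+ and 0.69, 0.95, 0.44, 0.49 and 0.47 in db/db. All db/db arrays were above all db/+ arrays, although the db/+ values spread widely (1.56-fold higher, log2 difference 0.64 ± 0.20 SE, limma adjusted p = 0.0318). Without db/+ replicate 1 or db/db replicate 1 or 2, Slc7a11 did not pass (adjusted p = 0.0716, 0.0667 and 0.072). The LAT1 light chain Slc7a5 and its partner chain Slc3a2 did not pass (0.18, adjusted p = 0.0539, and -0.42, adjusted p = 0.201). Slc7a5 passed as higher without db/+ replicate 3 or db/db replicate 3 (adjusted p = 0.0143 and 0.0389), and Slc3a2 as lower without db/+ replicate 1 (-0.60, adjusted p = 0.0358).

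The synthetases, which charge tRNAs with their amino acids, had a median difference of -0.21, with 7 of 12 estimates below 0. The test called 1 higher and 2 lower. Aars, for alanine, read -0.26, -0.43, 0.00, 0.02 and -0.08 in db/+ and -0.94, -0.68, -0.47, -0.36 and -0.60 in db/db. The ranges met at 1 db/+ and 1 db/db array (1.38-fold lower, log2 difference -0.46 ± 0.12 SE, limma adjusted p = 0.0161), and with quantile normalization the difference fell to -0.18 (adjusted p = 0.483). Yars, for tyrosine, had 3 db/+ values of -0.11, 0.00 and 0.15, all above the db/db values of -0.41, -0.29, -0.23, -0.28 and -0.16 (1.22-fold lower, log2 difference -0.29 ± 0.08 SE, limma adjusted p = 0.0232). Leaving out db/+ replicate 4 or 5 ended the call of Yars (adjusted p = 0.0574 and 0.0774).

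Mars, for methionine, was the member synthetase called higher, with -0.16, 0.00, 0.00, 0.13 and -0.03 in db/+ and 0.15, 0.21, 0.09, 0.24 and 0.17 in db/db. The rise was small and the groups met at 1 array each (1.14-fold higher, log2 difference 0.18 ± 0.05 SE, limma adjusted p = 0.0252). Mars did not pass without db/+ replicate 5 or db/db replicate 2 or 4 (adjusted p = 0.0546, 0.0514 and 0.0553), and without the reference its difference was 0.05. Gars, Cars, Tars, Eprs and Nars had estimates of -0.43 to -0.18 and did not pass, with adjusted p from 0.127 to 0.436. Sars, Iars, Wars and Lars lay between 0.00 and 0.25. The tested probes of Wars and Lars were dim, with intensities of a few hundredths of a unit rounded to 0.01. No change is read from them. A second Lars probe was bright (17.5 units) but had 1 value per group, -0.07 in db/+ and 0.06 in db/db, and was not tested.

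The secreted and surface proteins stood highest, with a median difference of 0.80 and 3 of 4 members called higher. Gdf15, a stress hormone that acts on the hindbrain to reduce food intake, read -0.28, -0.45, -0.62, 0.38 and 0.07 in db/+ and 1.17, 1.07, 0.64, 0.83 and 0.71 in db/db. Each db/db array was above each control (2.09-fold higher, log2 difference 1.06 ± 0.19 SE, limma adjusted p = 0.00224). Fgf21, a hormone of the fasting and stress response, read 0.08, -0.19, -0.71, -0.36 and 0.05 in db/+ and 0.80, 1.74, 0.47, 0.26 and 0.25 in db/db. The db/db values spread from just above the controls to far above them (1.90-fold higher, log2 difference 0.93 ± 0.29 SE, limma adjusted p = 0.033). Fgf21 did not pass without db/+ replicate 2, 3 or 4 (adjusted p = 0.0593, 0.079 and 0.0717) or db/db replicate 1 (0.0675), nor when Cy5 was used alone (0.79, adjusted p = 0.0565). Its Cy3 reference differed by -0.15 between the arrays of the groups (unadjusted p = 0.046, adjusted p = 0.86).

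Stc2, a secreted glycoprotein induced by stress of the endoplasmic reticulum, read 0.12, -0.05, -0.18, 0.05 and 0.06 in db/+ and 0.78, 0.91, 0.53, 0.48 and 0.67 in db/db. The groups were separate and tight (1.59-fold higher, log2 difference 0.67 ± 0.09 SE, limma adjusted p = 0.000379). Vldlr, a lipoprotein receptor, did not pass (0.30, 95% interval 0.01 to 0.58, limma adjusted p = 0.0984). It passed with the replicate number as a block (limma adjusted p = 0.00559). A second Vldlr probe gave 0.12 and did not pass (limma adjusted p = 0.618).

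**Figure D2:**
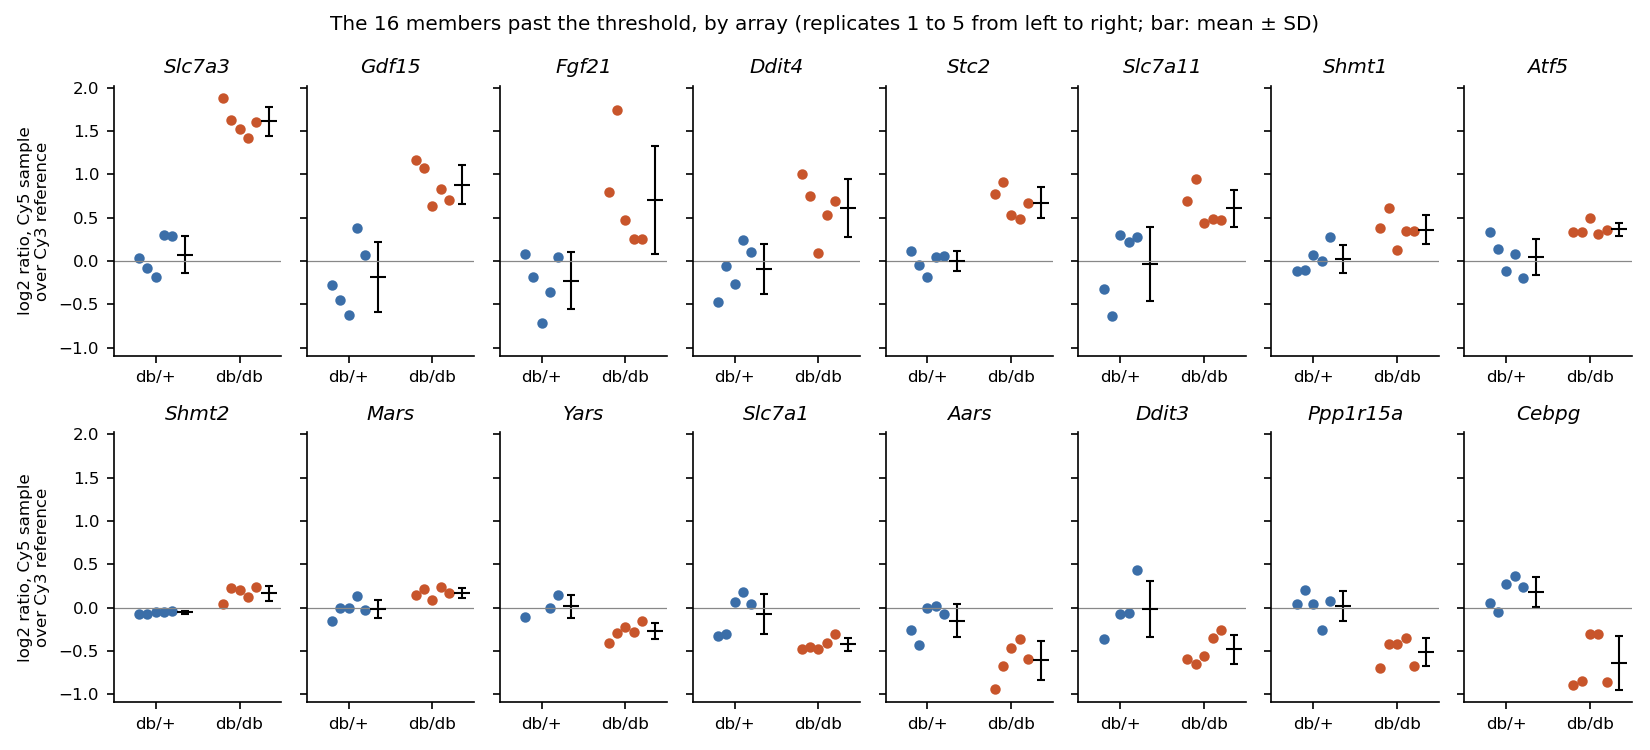
Log2 ratio of the Cy5 islet sample over the Cy3 reference on each array for the 16 members past the threshold, with db/+ in blue and db/db in orange; black bars give mean ± SD. Slc7a3 shows the widest gap, with db/db values of 1.42 to 1.88, and Shmt2 and Mars show the smallest differences, at 0.22 and 0.18.

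Values within a group spread more for these genes than for a typical gene. The median SD within a group was 0.245 in db/+ and 0.21 in db/db over the 36 members with 10 values, compared with 0.131 and 0.147 over all such genes. The latter include dim genes, and spread between mice was not separated from that of RNA preparation or amplification. The median over the synthetases was -0.25, -0.24, 0.00, 0.15 and 0.07 on db/+ arrays 1 to 5 and -0.37, -0.30, 0.08, -0.03 and -0.24 on db/db arrays 1 to 5. For the amino acid enzymes it was -0.15, -0.14, 0.07, 0.26 and 0.14 in db/+ and -0.32, 0.02, 0.29, 0.27 and -0.12 in db/db. Both groups of genes were low on db/+ arrays 1 and 2 and on db/db array 1 and higher on db/+ array 4 and on db/db arrays 3 and 4, and the range within a genotype was wider than the difference between genotypes. Of the 36 members, db/db replicate 1 held the lowest db/db value for 18, compared with 20.7% of all genes, and db/+ replicate 4 held the highest db/+ value for 20 (55.6%), compared with 19.6% of all genes. The lowest db/+ value was in replicate 1 for 12 and in replicate 2 for 15 members. The medians of the secreted and surface proteins were -0.06, -0.32, -0.40, 0.07 and 0.06 on db/+ arrays 1 to 5, with array 4 again the highest, and 0.79, 0.99, 0.50, 0.41 and 0.46 on db/db arrays 1 to 5, with arrays 1 and 2 the highest.

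**Figure D3:**
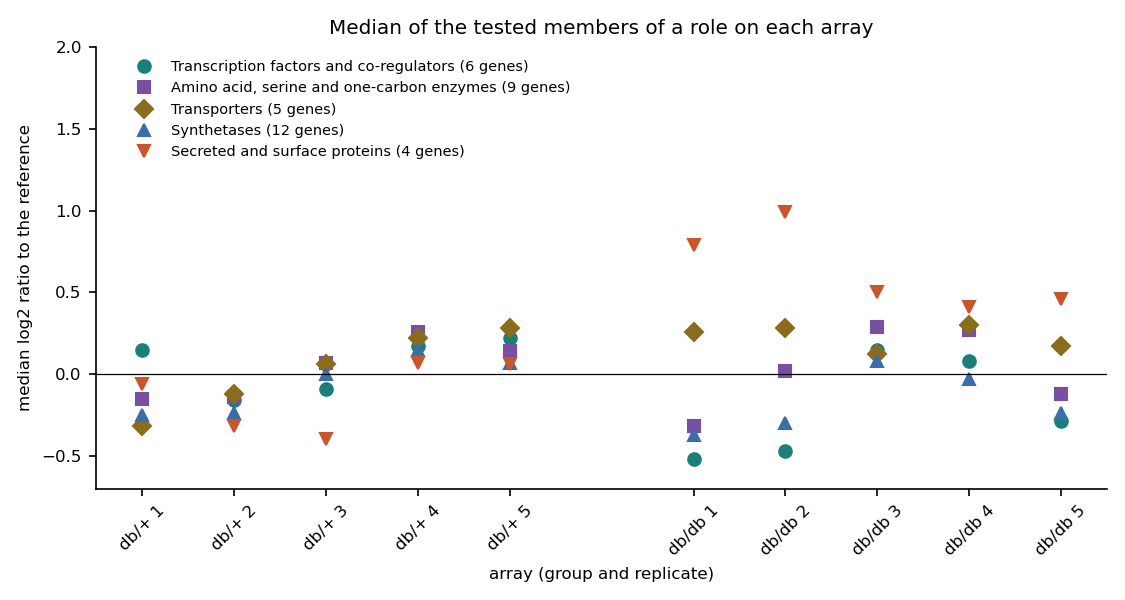
Median log2 ratio to the reference on each array over the tested members of 5 roles that have a value there; the roles differ by symbol. Synthetases and amino acid enzymes are low on db/+ arrays 1 and 2 and on db/db array 1, while the secreted and surface proteins lie at 0.41 to 0.99 on every db/db array and at -0.40 to 0.07 on the db/+ arrays.

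The tissue label was checked on the reference channel. The beta cell genes Iapp, Slc2a2 and Slc30a8 had mean reference intensities of 15.8 to 18.6 units and the alpha cell hormone gene Gcg 15.5 units. All had too few values for a test, whereas the probes of Ins1 and Mafa were dim (0.044 and 0.045 units). On all 5 db/db arrays Slc2a2 read -2.48 to -1.58 and Slc30a8 -1.11 to -0.53 against the reference. Iapp read 0.12 to 0.50 on 3 db/db arrays. None of these beta cell genes had a db/+ value. The acinar enzyme genes Cpa1, Cela1, Cela2a and Pnlip, also with too few values, were at 15.6 to 16.5 units. Markers of other cells moved between the same groups. Of 5 mesenchymal markers (Col1a1, Col1a2, Col3a1, Pdgfrb and Acta2), 4 were higher in db/db, and their median per array was -0.23 to 0.46 in db/+ and 0.98 to 1.72 in db/db. Of 8 macrophage markers, 4 were higher, at -0.22 to 0.09 and 0.13 to 0.47. On db/+ arrays 1 to 5 the macrophage median was 0.09, 0.04, 0.06, -0.17 and -0.22 and the mesenchymal median 0.46, 0.22, -0.20, -0.20 and -0.23, and on db/db arrays 1 to 5 they were 0.47, 0.29, 0.13, 0.19 and 0.28, and 1.53, 1.20, 1.72, 0.98 and 1.40. In db/+ the lowest 2 macrophage medians were on arrays 4 and 5, where the synthetase medians were highest, and the mesenchymal medians were low on arrays 3 to 5. In db/db the highest synthetase median was on array 3, with the lowest macrophage and the highest mesenchymal median. The relation of these medians to those of the synthetases was not tested. Of 5 duct markers 1 was higher (-0.25 to 0.14 and 0.06 to 0.51), and of 5 endothelial markers 1 was higher and 1 lower (-0.18 to 0.04 and -0.28 to -0.14). Of 3 tested acinar markers 1 was lower (-0.40 to 0.45 and -1.29 to 0.02), 3 of 4 tested beta cell markers were lower (-0.04 to 0.00 and -0.45 to -0.36, with the dim probes of Ins1 and Mafa among the 4 and no change read from either, which leaves Pdx1 and Nkx6-1 as lower), 2 of 4 alpha cell markers were higher and 1 lower (-0.16 to 0.21 and 0.33 to 0.57), and of 3 delta and PP cell markers 1 was higher and 2 lower (-0.17 to 0.19 and -1.19 to -0.66). The part of these cells in the values of the stress genes was not tested.

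Blank values fell on the brightest probes. Of the 10 member probes with a mean reference intensity of at least 14 units, 34.0% of values were blank, compared with 0.256% on the other 39 probes, and the probes of Atf4, Ddit3, Chac1, Yars, Eprs and Cebpb were among the former. No saturation flags were used here, so whether the folds of these bright probes, Ddit3 and Yars included, are compressed was not tested. The Cy3 channel, which held the same reference throughout, served as a control. With limma, 0.0153% of all genes and 0 of the members differed in it between the groups, although 2 members had an unadjusted p under 0.05, Asns and Fgf21 as given above.

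Other genes of the pathway, 74 tested in 6 lists, were likewise split, with 15 higher (20.3%) and 13 lower (17.6%). Together 37.8% passed, near the 35.2% of all genes. Of 14 further genes linked to ATF4, 5 rose and 3 fell (median 0.02). Pycr1, which makes proline, rose from -0.27 to -0.07 in db/+ to 0.85 to 1.31 in db/db (2.50-fold, log2 difference 1.32 ± 0.09 SE, limma adjusted p = 7.22e-06). Pck2, the mitochondrial phosphoenolpyruvate carboxykinase, rose 1.60-fold (adjusted p = 5.13e-05). Atf3, a factor induced by ATF4 and by many other signals, lay at -2.46 to -2.11 in db/db and at -0.29 to 0.84 in db/+, so it fell while Pycr1 and Pck2 rose (log2 difference -2.44 ± 0.24 SE, limma adjusted p = 6.2e-05). The other calls in this list were Gpt2, Slc6a9 and Slc1a5, higher, and Cbs and Slc7a6, lower.

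Among 13 genes of eIF2, its exchange factor eIF2B and other regulators, 1 rose and 3 fell (median -0.06). Ppp1r15b, the constitutive partner of the eIF2 phosphatase and a relative of Ppp1r15a, was at 0.00 to 0.54 in db/+ and at -0.72 to -0.15 in db/db (1.73-fold lower, log2 difference -0.79 ± 0.15 SE, limma adjusted p = 0.00239). Both eIF2 phosphatase partners were therefore lower in db/db islets. Impact, an inhibitor of GCN2, fell by 0.72 and Eif2b4, a subunit of eIF2B, by 0.42 on the log2 scale (limma adjusted p = 0.00609 and 0.000167). Both calls ended with quantile normalization (adjusted p = 0.0769 and 0.108).

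In the folate list, 2 of 11 genes rose and 1 fell (median 0.02). Mthfd1, the cytosolic enzyme that interconverts one-carbon folates, was 3.25-fold lower (log2 difference -1.70 ± 0.14 SE, limma adjusted p = 1.9e-05), at -1.96 to -1.21 in db/db and -0.09 to 0.14 in db/+. Its mitochondrial relatives Mthfd2 and Mthfd1l did not pass, as given above. Gldc, of glycine cleavage, was 1.58-fold higher (adjusted p = 0.0139, and 0.529 with quantile normalization).

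Of 9 tested genes of the other branches of the unfolded protein response, 3 rose and 1 fell (median 0.13). The disulfide isomerase Pdia4 was 1.81-fold and the sensor kinase Ern1 1.31-fold higher (adjusted p = 7.35e-05 and 0.00706), and Edem1, of degradation from the endoplasmic reticulum, was 1.37-fold lower (adjusted p = 0.0128). In the Cy5 signal without the reference, Ern1 and Edem1 did not pass (adjusted p = 0.139 and 0.209), nor did Edem1 with quantile normalization (0.203).

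The remaining synthetases resembled the members in being mixed. Of 11 other cytosolic synthetase and scaffold genes, 2 rose and 1 fell (median -0.05), namely Rars, for arginine, and the scaffold Aimp2, higher by 0.50 and 0.30 (adjusted p = 0.017 and 0.00254), and Dars, for aspartate, lower at -0.30 (adjusted p = 0.0331). Of 16 mitochondrial synthetases, 2 rose and 4 fell (median -0.14), and Rars2 rose by 0.25 and Sars2 fell by 0.40 on the log2 scale (adjusted p = 0.00341 and 0.00881). With quantile normalization Rars, Dars, Rars2 and Sars2 did not pass (adjusted p = 0.292, 0.104, 0.0966 and 0.345), and without the reference Aimp2, Rars2 and Sars2 did not (0.0598, 0.0789 and 0.1). The call of Dars also ended without db/+ replicate 3, 4 or 5 (0.0763, 0.0585 and 0.0689) and without db/db replicate 1, 2 or 5 (0.0705, 0.0685 and 0.0768).

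**Figure D4:**
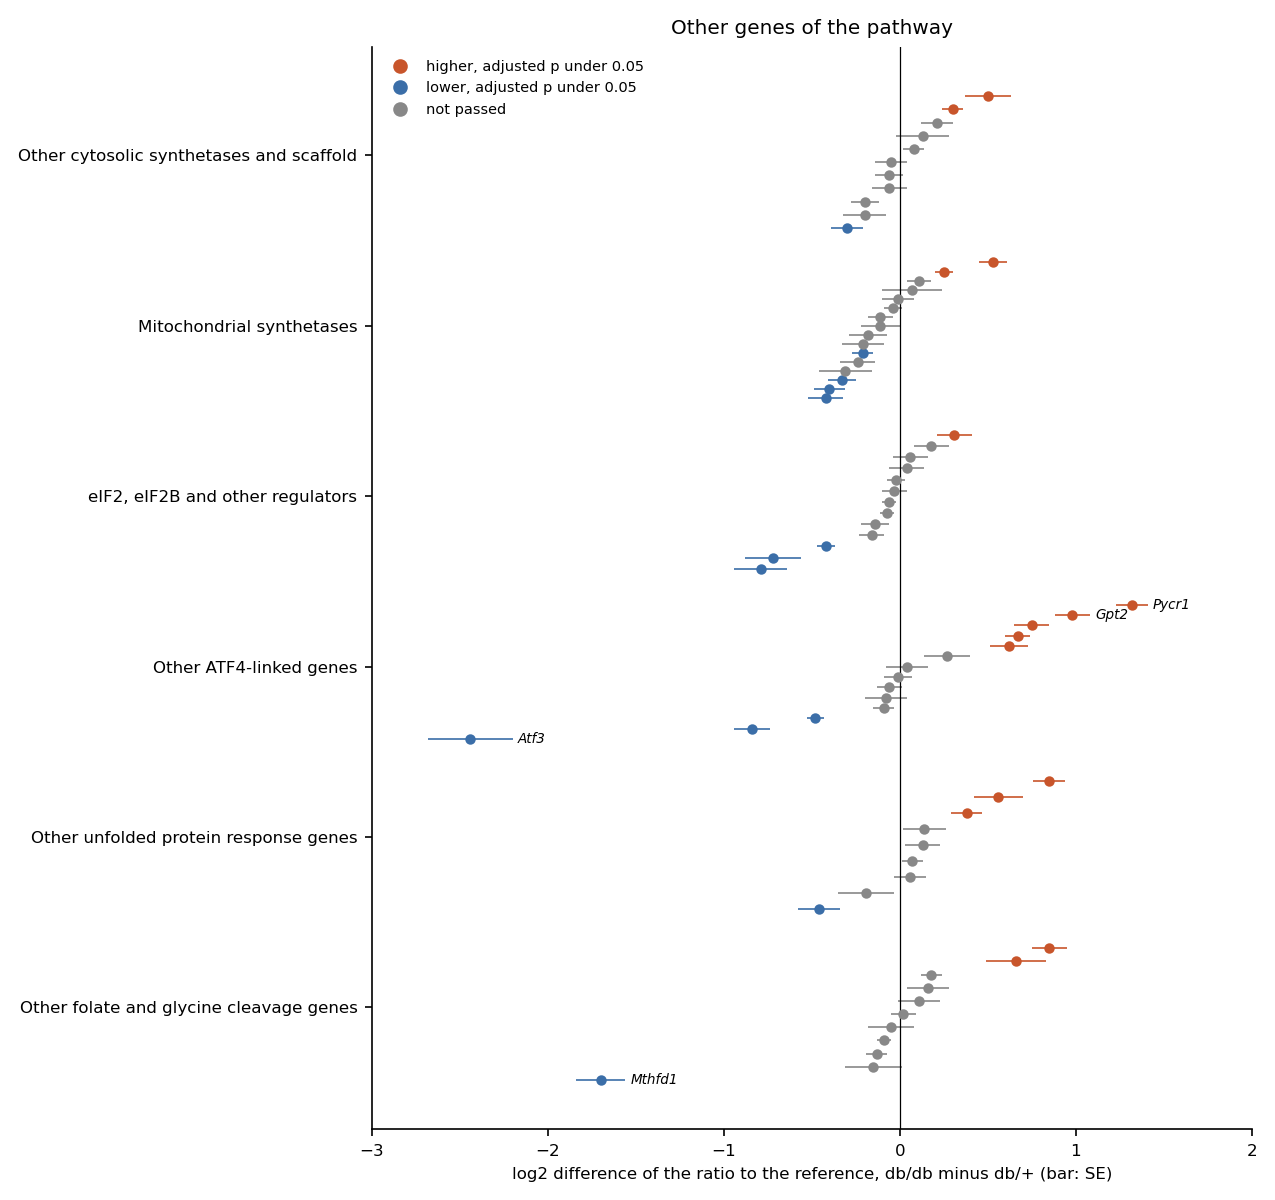
Log2 difference, db/db minus db/+, with its SE for 74 other tested genes of the pathway in 6 lists; orange and blue mark genes past the threshold and grey those that did not pass. Atf3 at -2.44 and Mthfd1 at -1.70 lie farthest to the left and Pycr1 at 1.32 farthest to the right.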

How the data were processed

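Islet RNA of 10 samples was prepared with Trizol, and 100 ng of each went through 2 rounds of amplification, per the labels' protocols. All arrays shared 1 dye orientation. The submitters' processing notes name Agilent Feature Extraction 8.5.1.1. The deposited Cy3 and Cy5 intensities are in arbitrary units, per the file headers. The deposited log10 ratios were checked to equal log10 of Cy5 over Cy3. How background and dyes were corrected, and why some spots are blank, is not given in the sources used here. 10 deposited columns of per-array p-values were not used. Each array had values for 22657 to 23365 of 23512 probes. The number of arrays limits the precision.

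Deposited log10 ratios were converted to log2 with no pseudocount or scaling. Their median is 0 on each array, and their SD is 0.194 to 0.309 on db/+ and 0.477 to 0.537 on db/db arrays. Probes with at least 3 values per group were kept, 1 per gene (highest mean Cy3 intensity). Those with a mean intensity under 0.049 units, the lower quartile, were called dim. The db/db arrays were tested against the db/+ arrays by the limma package (3.58.1, under R 4.3.3) with lmFit and eBayes, no covariate, and Benjamini-Hochberg adjustment over 19567 genes (2-sided, threshold 0.05). The Cy3 channel was tested likewise after quantile normalization. The fit was tested on simulated data in which 100 of 19567 genes were changed 1.5-fold and 100 were changed 2-fold. It recovered 54% and 94% of these, and 5.73% of the calls were false. In the islet data 35.2% of genes passed, a far larger share, so these percentages do not give the power of this comparison. Smaller differences can go uncalled. Replicates are biological per the labels.

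Members and lists were chosen with earlier results of these data known. Values on every array are given for members past the threshold and for Atf4, Ddit3, Trib3, Chac1, Asns, Eif2ak3 and Eif2ak4, and of each other list up to 3 genes past the threshold with the smallest adjusted p, with further calls of the ATF4 list named after their values were seen. Some genes that this rule names are not reported here. Promoters are from RefSeq (GRCm38.p6), and 34 members matched. Symbols were updated from the same RefSeq annotation. Alternatives covered normalization, the reference, filters, probes, variance models, thresholds, the replicate block and single arrays left out. The data.table package (1.17.8), matplotlib 3.10.9, pandas 2.3.3 and Python 3.11.15 were also used.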

Additional observations from a re-analysis of the deposited data

Results flagged for a closer look

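In 4 of 81 groups of 4 or 5 values, 1 array lay far from the others of its group by Dixon's ratio, where chance gives about 1 in 20. For Atf5, db/db replicate 3 read 0.50, above the next value of 0.36. For Trib3, db/+ replicate 2 read -0.27, while the next value was 0.24. For Wars, db/+ replicate 1 and db/db replicate 1 both read -1.0 and the other arrays 0.00, on a dim probe whose intensities are rounded to 0.01 units.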

How the results depend on the processing

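Of the 16 members past the threshold, 5 passed in every alternative run (Slc7a3, Stc2, Gdf15, Cebpg and Ppp1r15a), and 11 lost the call in at least 1. Of 832 recomputed member differences, 56 no longer passed, 10 newly passed and 20 changed sign. With quantile normalization 4 members were higher and 2 lower, against 10 and 6, and over all genes the counts fell from 3349 higher and 3547 lower to 1677 and 1507. In the Cy5 signal without the reference 5 members were higher. At an adjusted p under 0.01, 4 were higher and 2 lower, and with a fold of at least 1.5 there were 6 and 1. Leaving out single arrays gave 7 to 10 higher and 3 to 7 lower, with 3 lower without db/+ replicate 5. Of the other pathway genes, 9 were higher and 7 lower with quantile normalization, against 15 and 13. These alternatives for the other pathway genes were added after seeing the data. The cause was not tested.

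Changes of sign concerned differences near 0 that did not pass. Without the reference they were Asns (-0.01), Psph (-0.01), Sars (-0.02) and Iars (-0.01), with loess Psat1 (0.04), and with array weights Psat1 (0.04) and Sars (-0.03). Single arrays left out gave -0.14 to 0.11 for Psat1, -0.05 to 0.04 for Sars, -0.06 to 0.26 for Psph, -0.04 to 0.25 for Nupr1 and -0.17 to 0.01 for Mthfd1l.

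With the replicate number as a block, 8 members were higher and 7 lower. Same-numbered arrays of the groups correlated at 0.0366 to 0.221 in their deviations from the group means and unlike-numbered ones at -0.232 to 0.277. All same-numbered values were positive and the ranges overlapped, so these values cannot tell whether same-numbered arrays shared a batch. The replicate block ended the calls of Atf5 (adjusted p = 0.0693), Shmt1 (0.0716) and Slc7a11 (0.109) and added Gars (0.0338) and Vldlr (0.00559). Medians by role and the share of promoters with the core kept within their spread in the alternatives run for them. Blank values limit the brightest probes and rounding the dim ones.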
